A study of Oryctolagus cuniculus with 12 samples.

Results

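Contractile genes of myofibroblasts and smooth muscle were followed in bulk RNA-seq of the rabbit ear, across normal skin and hypertrophic scar (HS) with and without treatment. The 10 gene symbols chosen were ACTA2, TAGLN, CNN1, MYH11, MYL9, ACTG2, LMOD1, SYNPO2, CALD1 and FAP, and a gene was taken where its symbol stood in the expression table. Of the 10 symbols, 8 were found among the 29587 genes of the table. The symbols TAGLN (transgelin) and CNN1 (calponin) matched no row, so these genes have no values here as members. All 8 members found were high enough to be tested.

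The 12 samples formed 4 groups of 3, each from a group of 3 rabbits, all of them wild-type females aged 10 to 12 weeks when bought. Normal skin (NS) came from rabbits that were neither wounded nor treated. In the other groups, 4 round wounds of 7 mm were cut on the ventral side of each ear, removing epidermis, dermis and perichondrium, and the scars that followed were left untreated (HS), given 1 patch of drug-loaded microneedles (MNs) per lesion, or injected with 0.1 mL holding 120 μg of 5-fluorouracil (5-Fu) per lesion. The microneedles carried a prodrug of 5-Fu acetic acid in gelatin tips that stay in the skin. Both treatments were given on days 22, 29 and 36, and the tissue of all groups was taken on day 43 through the full thickness of the ear, cartilage included. The study describes the 3 samples of a group as biologically independent, and the labels do not name the animal of each sample. They were taken here as different rabbits, so the spread between replicates is read as that between animals. Drug-free MNs were not analysed here, so the drug and the needles cannot be told apart.

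Smooth muscle cells and myofibroblasts contract when myosin heads pull on filaments of actin, and the regulatory light chain of myosin switches this pull on when it is phosphorylated. Smooth muscle lines the vessels and the hair follicle muscles of skin and carries the full set of these proteins. Myofibroblasts are activated fibroblasts that take up smooth muscle actin in a healing wound and are a known feature of hypertrophic scars. Serum response factor with its partners myocardin and the MRTF proteins is the classical switch of these genes. Fibroblast activation protein marks activated fibroblasts without being part of the contractile machinery.

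Levels are given as FPKM, the fragments on a gene per length of the gene and per size of the library, so that genes can be compared by level. Each sample held between 10521472 and 14043667 reads on genes. The members held 254 to 36110 reads in a sample, so counting error was small beside the spread between samples. Fold changes are differences of log2(FPKM + 1) from limma, with adjusted p-values over 13287 genes. The fit shares 1 spread per gene over the 4 groups. A sample far from the rest of its group therefore widens the intervals of every comparison. A gene was called a differentially expressed gene (DEG) where that p was under 0.05 and the log2 fold change exceeded 1 in size. In bulk tissue, fewer cells of a type and less RNA per cell cannot be told apart.

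**Figure D1:**
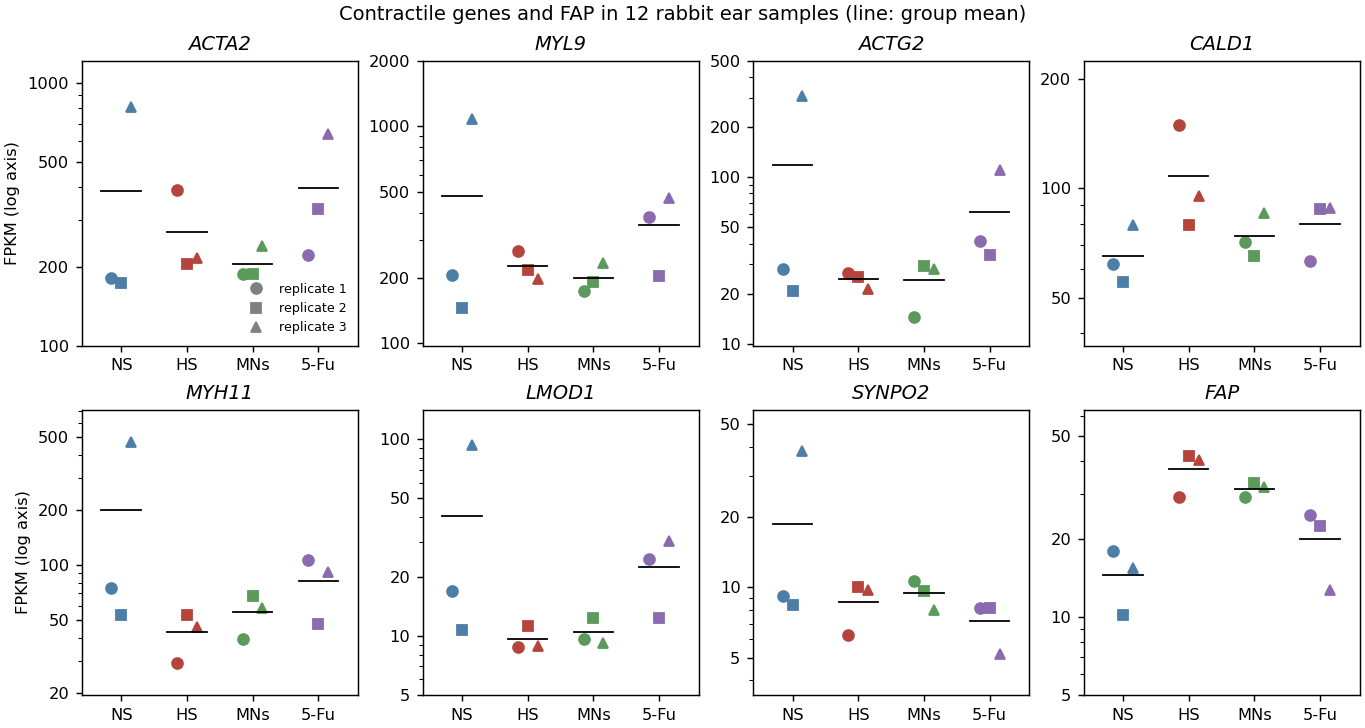
FPKM of the 8 members in each of the 12 samples (log axis), with NS, HS, drug-loaded MNs (MNs) and 5-Fu injection (5-Fu) along the horizontal axis, symbols for the replicate and a line at the group mean. NS replicate 3 is the highest of the 12 samples for ACTA2, MYL9, ACTG2, MYH11, LMOD1 and SYNPO2, while the 3 HS samples lie above the 3 NS samples for CALD1 and FAP.

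One library stood apart in the contractile genes. NS replicate 3 had the highest level of the 12 samples in 6 of the 8 members. Its level was 4.54 times the mean of the other NS samples for ACTA2, 6.13 times for MYL9, 7.32 times for MYH11, 12.6 times for ACTG2, 6.76 times for LMOD1 and 4.37 times for SYNPO2. CALD1 did not share this, at 1.35 times, nor did FAP, whose NS replicate 3 lay between the other NS samples. The same library was also the highest of the 12 in DES (desmin, the muscle intermediate filament), at 479 FPKM against 41.2 to 166 elsewhere, and in RGS5 (a pericyte gene), at 138 against 23.6 to 113. Of the 11 skeletal muscle genes found, ACTA1, CKM and ACTN2 were also highest there, at 44.2, 23.7 and 4.80 FPKM, as was MYLPF at 0.781, and TNNT3 was second of the 12 at 5.83. Their summed level was 79.4 FPKM in NS replicate 3 and 6.31 to 20.9 in the other samples. MYH1, MYH4, MYH7, MYL1 and NEB, also on that list, lay between 0 and 0.159 FPKM in all samples. MB, the remaining gene of the list, was 0 in every NS sample and highest in HS replicate 3, at 0.423 FPKM. ACTA1, ACTA2 and ACTG2 encode nearly identical actins, so reads could have been divided between them in counting. Whether the amount of vessel or other muscle in the piece of ear set these levels was not tested.

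The actins opened the set. ACTA2, the smooth muscle alpha actin by which myofibroblasts are recognised, is ENSOCUG00000008193 on chromosome 18 from 36853674 to 36870923, minus strand. The genome build behind the coordinates is not given in the sources used here. It measured 181, 174 and 806 FPKM in NS replicates 1 to 3, 393, 204 and 216 in HS, 187, 187 and 239 with drug-loaded MNs, and 221, 331 and 640 with 5-Fu injection. Every group overlapped every other, and the widest spread was within NS. HS against NS differed by -0.18 on the log2 scale (95% interval -1.41 to 1.04, adjusted p = 0.877, limma), which leaves a change of over 2-fold in either direction within the interval. Without NS replicate 3 the difference was 0.54 (adjusted p = 0.478), with the opposite sign and again past no threshold. ACTA2 thus gave no direction for scar against normal skin in these samples.

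ACTG2, the smooth muscle gamma actin of visceral and vascular muscle (ENSOCUG00000003663, chromosome 2, 112583262 to 112603850, minus strand), was at a lower level. It measured 28.2, 20.7 and 308 FPKM in NS, 26.7, 25.3 and 21.4 in HS, 14.5, 29.3 and 28.2 with drug-loaded MNs, and 41.2, 34.2 and 110 with 5-Fu injection. The 3 injected samples lay above all HS and all MNs samples, whereas HS and MNs overlapped. HS against NS differed by -1.19 (95% interval -2.999 to 0.61, adjusted p = 0.421, limma), and by 0.012 without NS replicate 3.

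The myosin subunits came next. MYH11, the smooth muscle myosin heavy chain and the most selective smooth muscle gene of the set (ENSOCUG00000013450, chromosome 6, 11019065 to 11130994, plus strand), measured 74.6, 53.6 and 470 FPKM in NS and 29.2, 53.6 and 45.8 in HS. With drug-loaded MNs it measured 39.6, 67.9 and 58.3, and with 5-Fu injection 106, 47.8 and 92.3. HS lay at the lower end but its highest sample reached the lowest NS sample, so the groups overlapped. The difference of HS from NS was -1.55 ± 0.66 (SE), with an unadjusted p of 0.0378 in limma that did not pass adjustment (adjusted p = 0.184), and it shrank to -0.59 without NS replicate 3.

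MYL9, the regulatory light chain whose phosphorylation starts contraction (ENSOCUG00000000637, chromosome 4, 3443575 to 3448377, minus strand), had levels like those of ACTA2. It measured 205, 146 and 1077 FPKM in NS, 265, 218 and 197 in HS, 175, 191 and 234 with drug-loaded MNs, and 384, 205 and 469 with 5-Fu injection. All groups overlapped. HS against NS was -0.50 (95% interval -1.81 to 0.80, adjusted p = 0.654, limma) with all samples and 0.37 without NS replicate 3.

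The proteins that build and tie actin filaments were LMOD1 and SYNPO2. LMOD1, a leiomodin that starts new actin filaments in smooth muscle (ENSOCUG00000007492, chromosome 16, 69652629 to 69692526, plus strand), measured 17.0, 10.7 and 93.5 FPKM in NS, 8.74, 11.3 and 8.82 in HS, 9.68, 12.4 and 9.17 with drug-loaded MNs, and 24.5, 12.3 and 30.3 with 5-Fu injection. Its HS and MNs samples were narrowly spread and overlapped, and all injected samples lay above all HS samples. HS against NS was -1.36 ± 0.61 (SE), with an unadjusted p of 0.0477 and an adjusted p of 0.208 in limma, and -0.46 without NS replicate 3.

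SYNPO2, an actin-bundling protein of muscle (ENSOCUG00000008953, chromosome 15, 94209337 to 94403714, plus strand), measured 9.15, 8.41 and 38.4 FPKM in NS, 6.23, 10.1 and 9.72 in HS, 10.6, 9.64 and 7.97 with drug-loaded MNs, and 8.15, 8.20 and 5.19 with 5-Fu injection. It was the member whose lowest sample was 5-Fu injection replicate 3, a sample that ranked second of the 12 in ACTA2, MYL9, ACTG2 and LMOD1. The difference of HS from NS was -0.71 (95% interval -1.71 to 0.29, adjusted p = 0.386, limma), and -0.041 without NS replicate 3.

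CALD1, caldesmon, binds actin and tropomyosin, restrains myosin and is also made by cells outside muscle (ENSOCUG00000008127, chromosome 7, 13255548 to 13449107, plus strand). It measured 61.7, 55.2 and 79.0 FPKM in NS and 150, 79.4 and 95.3 in HS. With drug-loaded MNs it measured 71.2, 65.0 and 85.6, and with 5-Fu injection 63.0, 87.7 and 88.2. The HS samples lay above the NS samples, by a narrow margin between the nearest ones, and both treated groups overlapped HS and NS. HS against NS was 0.68 ± 0.24 (SE), with an unadjusted p of 0.0155 that did not pass adjustment in limma (adjusted p = 0.114), and 0.83 without NS replicate 3.

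FAP, fibroblast activation protein, is a serine protease at the surface of activated fibroblasts (ENSOCUG00000005115, chromosome 7, 101115356 to 101388649, minus strand). It measured 17.9, 10.2 and 15.4 FPKM in NS, 29.0, 42.0 and 40.6 in HS, 29.1, 32.9 and 31.7 with drug-loaded MNs, and 24.8, 22.4 and 12.7 with 5-Fu injection. The 3 HS samples and the 3 MNs samples lay above all NS samples and above all injected samples, HS and MNs overlapped, and so did NS and 5-Fu injection. FAP rose in HS, with a group mean of 37.2 ± 7.14 FPKM (SD, n = 3) against 14.5 ± 3.97 in NS, a log2 fold change of 1.32 ± 0.26 (SE) and an adjusted p of 0.0131 in limma. It was a DEG in 7 of 8 other settings that kept all samples, and without NS replicate 3 (1.38, adjusted p = 0.0259). The call was lost with either of a pair of HS samples left out, since the adjusted p was 0.0531 without HS replicate 2 (log2 fold change 1.22) and 0.0514 without HS replicate 3 (1.25), while it was kept without HS replicate 1. With FPKM rescaled to the total of reads on genes it was 0.97 with an adjusted p of 0.0215, under the fold threshold, while the median of all genes shifted to -0.33.

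**Figure D2:**
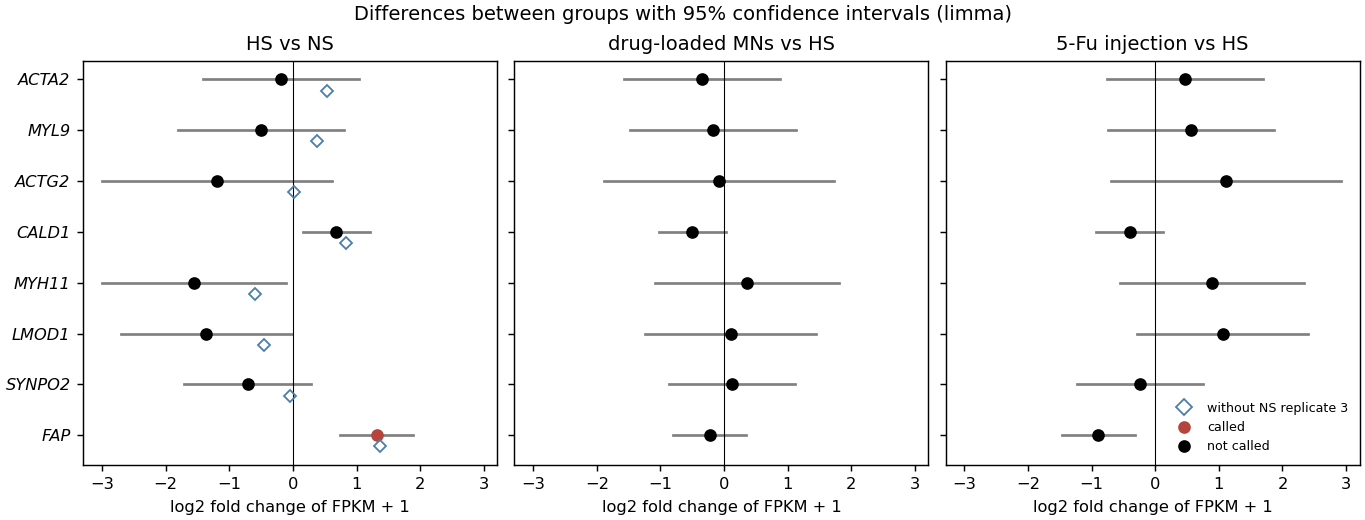
Log2 fold change of FPKM + 1 for each member (points) with its 95% confidence interval (lines) in HS against NS, drug-loaded MNs against HS and 5-Fu injection against HS. FAP in HS against NS, at 1.32, is the one point called, and open diamonds mark HS against NS without NS replicate 3, where ACTA2, MYL9 and ACTG2 lie to the right of 0.

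The first comparison asked how scar differed from normal skin. Of the 8 members, 1 was a DEG in HS against NS, beside 5.00% of all genes tested, with 3.53% of genes higher in HS and 1.48% lower. HS and NS did not overlap in 2 of the 8 members, CALD1 and FAP, where 33.3% of all genes did not overlap, so the members stood apart no more often than genes in general. An unadjusted p under 0.05 was reached by 4 members, MYH11 and LMOD1 lower in HS and CALD1 and FAP higher, beside 23.4% of genes. The median difference of the 8 members was -0.61, and -0.71 without FAP, against -0.01 over all genes. Without NS replicate 3 the median turned to 0.19, and to 0.012 without FAP.

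The second comparison asked what drug-loaded MNs changed in scar. In limma, 0 of the 8 members were DEGs, beside 0.00753% of all genes tested, and 0 reached an unadjusted p under 0.05, beside 8.90% of genes. Limma voom on reads counted back from the FPKM also called 0 members. MNs and HS samples overlapped in all 8 members, where 18.9% of genes did not overlap. The intervals here rest on the spread shared by all groups, NS replicate 3 included. The nearest to a difference was CALD1, at -0.50 (95% interval -1.03 to 0.03, adjusted p = 0.586). For ACTA2 the difference was -0.35 with an interval from -1.58 to 0.88, and for FAP it was -0.23 with an interval from -0.80 to 0.34, so a fall by more than 1 on the log2 scale lay outside the interval for FAP and inside it for ACTA2.

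The third comparison asked the same of 5-Fu injection and shares the HS samples with the other comparisons against HS. In limma, 0 of the 8 members were DEGs, beside 2.29% of all genes tested (0.512% higher and 1.78% lower with the injection), and limma voom called 0. FAP had an unadjusted p of 0.00541, where 26.0% of genes were under 0.05. Injected and HS samples were fully separate in 3 of the 8 members, and in 30.3% of genes. Those were ACTG2 at 1.11 (95% interval -0.69 to 2.92, adjusted p = 0.414), LMOD1 at 1.06 (-0.28 to 2.41, adjusted p = 0.298) and FAP at -0.90 (-1.47 to -0.32, adjusted p = 0.0699). ACTG2 and LMOD1 were thus higher and FAP lower in each injected sample than in each HS sample, without passing the adjusted test. Without 5-Fu injection replicate 3, the differences were 0.60 for ACTG2, 0.80 for LMOD1 and -0.62 for FAP.

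Between the treatments, 0 of the 8 members were DEGs in drug-loaded MNs against 5-Fu injection, as was 0% of all genes in limma, and limma voom called 0 members. FAP was at 0.67 (95% interval 0.10 to 1.24, unadjusted p = 0.0259, adjusted p = 0.295, limma) and ACTG2 at -1.19 (-2.998 to 0.61, adjusted p = 0.502), and these were the 2 members whose samples did not overlap, beside 17.1% of genes. ACTA2 was at -0.82 with an interval from -2.05 to 0.40. The members therefore gave no difference between the treatments that passed adjustment, and the intervals of the actins hold differences of over 2-fold.

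Against normal skin, both treated groups also gave 0 DEGs among the 8 members in limma and in limma voom, beside 0.873% of genes in the MNs comparison (0.790% higher and 0.0828% lower with MNs) and 0.00753% in that of 5-Fu injection. FAP was at 1.09 ± 0.26 (SE) with drug-loaded MNs (unadjusted p = 0.00151, adjusted p = 0.0927, limma) and was the 1 member whose MNs and NS samples did not overlap, beside 20.6% of genes. With 5-Fu injection, FAP was at 0.42 (95% interval -0.15 to 0.99, adjusted p = 0.452). SYNPO2 was the 1 member whose injected and NS samples did not overlap, beside 18.8% of genes, at -0.95 (-1.95 to 0.05, adjusted p = 0.353) with all samples and at -0.092 without replicate 3 of both groups.

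The members were also set against ACTA2 within each sample. For a gene that did not share the high ACTA2 level of NS replicate 3, such as CALD1 or FAP, this ratio carries that level as a low value. These 7 ratios of FPKM were chosen after the values had been seen. The ratio of MYH11 to ACTA2 was 0.412, 0.308 and 0.582 in NS and 0.0745, 0.262 and 0.212 in HS. All HS samples lay below all NS samples, a log2 difference of -1.39 at p = 0.1 in a two-sided exact permutation test, the smallest p that 3 samples against 3 can give, and 0.233 after adjustment over the 7 ratios. LMOD1 to ACTA2 was likewise lower in every HS sample (0.0904 ± 0.0273 in NS and 0.0393 ± 0.0164 in HS, SD, n = 3, exact p = 0.1, adjusted p = 0.233), and CALD1 to ACTA2 was higher in every HS sample (0.252 ± 0.134 and 0.403 ± 0.0324, exact p = 0.1, adjusted p = 0.233). The CALD1 ratio was 0.098 in NS replicate 3 and 0.341 and 0.317 in the other NS samples, and without that library the log2 difference of HS from NS was 0.29 in place of 0.87. The other 4 ratios overlapped between HS and NS.

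**Figure D3:**
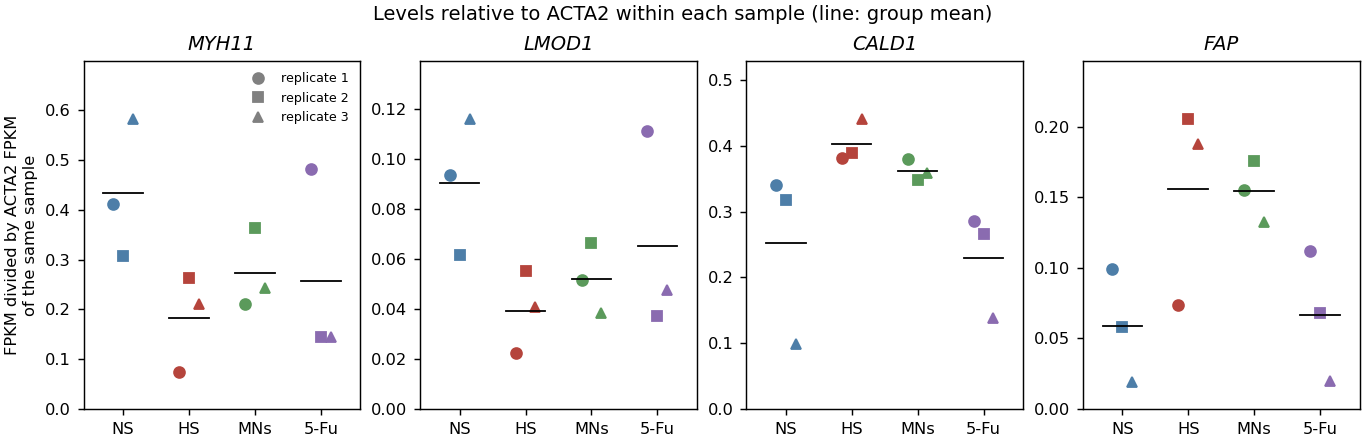
FPKM of MYH11, LMOD1, CALD1 and FAP divided by the FPKM of ACTA2 in the same sample, by group, with symbols for the replicate and a line at the group mean. For MYH11 and LMOD1 the 3 HS samples lie below the 3 NS samples, for CALD1 they lie above them, and for FAP HS replicate 1, at 0.0738, lies among the NS samples.

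In the treated scars, CALD1 to ACTA2 was 0.362 ± 0.0166 with drug-loaded MNs and 0.229 ± 0.0800 with 5-Fu injection (SD, n = 3). Both groups lay below all HS samples (exact p = 0.1 each, adjusted p = 0.7 and 0.467 over the 7 ratios of each comparison). With MNs the margin was narrow, from 0.3804 in MNs replicate 1 to 0.3813 in HS replicate 1. The log2 difference from HS was -0.15 with MNs and -0.88 with 5-Fu injection. The other 6 ratios overlapped with HS in both treated groups. The signs of several of them hung on 1 sample. Without HS replicate 1, MYL9, SYNPO2 and FAP to ACTA2 turned from above to below HS with drug-loaded MNs, and MYH11 and MYL9 to ACTA2 did so with 5-Fu injection. The latter ratios also turned without 5-Fu injection replicate 1.

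Across the 12 samples, most contractile members moved together, but much of that came with 1 library. Pearson correlations of log2(FPKM + 1) with ACTA2 were 0.86 for MYL9, 0.88 for ACTG2, 0.72 for LMOD1, 0.59 for MYH11, 0.48 for CALD1, 0.34 for SYNPO2 and -0.38 for FAP. Without NS replicate 3 they were 0.73, 0.78, 0.42, 0.04, 0.64, -0.90 and -0.26 in the same order. MYH11 and LMOD1 kept a correlation of 0.86 with each other without that library, against 0.96 with it. These are descriptions over samples that share groups and libraries.

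The 5 genes most like ACTA2 across the 12 samples, members aside, were PPP1R14A (an inhibitor of myosin phosphatase, r = 0.94), TPM1 (a tropomyosin, 0.94), MCAM (a surface protein of vessel wall cells, 0.94), ADRA1D (an alpha-1 adrenergic receptor, 0.93) and RASL12 (0.90), with 0.81 to 0.90 left without NS replicate 3. The 5 most like FAP were CPXM2, ZNF521, NREP, HIPK1 and LVRN, at 0.95 to 0.96 with all samples and at 0.95 without NS replicate 3. These genes were picked as the highest of all genes tested, so the size of their correlations is set by that choice.

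Among other thin filament and actin-linked genes, 15 of 20 listed were tested and 2 were DEGs in HS against NS, in opposite directions. Over all genes tested, 5.00% were DEGs in HS against NS and 2.29% in 5-Fu injection against HS. These shares belong to the fit with all samples, and none is given for the refits of the lists without a library. CNN3, the calponin made outside muscle, rose from 96.1 ± 3.95 to 265 ± 35.3 FPKM (SD, n = 3, log2 fold change 1.44, adjusted p = 0.00472, limma). PDLIM3, an actin-linked protein of muscle, fell from 49.0 ± 32.3 to 11.6 ± 4.30 FPKM (-1.87, adjusted p = 0.0390). PALLD (palladin, which bundles actin) was at 1.4 with an adjusted p of 0.0608. CNN3 was lower again with 5-Fu injection than in HS, at -1.13 (adjusted p = 0.0295), the 1 DEG of the list in that comparison. Without NS replicate 3, PDLIM3 was no longer a DEG in HS against NS, and CNN3 and PALLD were, both higher in HS. Without 5-Fu injection replicate 2, 3 genes of the list were DEGs against HS, PDLIM3 higher and CNN3 and LPP lower.

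Of 9 tested genes of myosin and its phosphorylation, 1 was a DEG in HS against NS, beside 5.00% of all genes tested. MYH10, a nonmuscle myosin heavy chain, rose from 10.8 ± 2.01 to 23.3 ± 0.789 FPKM (SD, n = 3, 1.05, adjusted p = 0.00886, limma) and fell by 1.23 on the log2 scale with 5-Fu injection against HS (adjusted p = 0.0205). Without 5-Fu injection replicate 2, 2 genes of the list fell against HS, MYH10 and ROCK2. PPP1R12B, a subunit of myosin phosphatase, was at -0.63 and PPP1R14A at -0.52 in HS against NS, with adjusted p of 0.462 and 0.672.

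Other smooth muscle genes had 14 tested, of which 0 rose and 3 fell in HS against NS in limma, with a median of -0.53. Over all genes tested, 3.53% rose and 1.48% fell as DEGs. HSPB8, a small heat shock protein, fell from 183 ± 42.2 to 62.5 ± 14.4 FPKM (SD, n = 3, -1.54, adjusted p = 0.00471). CASQ2, a calcium store protein, fell by 1.49 (adjusted p = 0.0381). In both of these genes the 3 HS samples lay below the 3 NS samples, replicates 1 and 2 of NS included. DES was at -1.90 with an adjusted p of 0.0602. Without NS replicate 3, 1 gene of the list fell, HSPB8, and the median of the list was 0.075. The summed level of the list was 325 to 1075 FPKM in NS and 179 to 273 in HS, 226 to 337 with drug-loaded MNs and 239 to 417 with 5-Fu injection.

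The transcriptional regulators had 8 of 13 listed genes tested, where 5.00% of all genes tested were DEGs in HS against NS. WWTR1, the TAZ co-activator of the TEAD factors, was the 1 DEG in HS against NS, rising from 58.9 ± 8.69 to 134 ± 14.5 FPKM (SD, n = 3, 1.18, adjusted p = 0.0145, limma). With 5-Fu injection against HS it fell by 1.08 (adjusted p = 0.0367), and TEAD1, its DNA-binding partner, fell by 1.07 (adjusted p = 0.0272), beside 1.78% of all genes lower. In that comparison 0 of the 8 regulators were above 0, with a median of -0.55 against 0.015 over all genes. MYOCD, myocardin, was at 3.03 ± 2.18 FPKM in NS and 1.46 ± 0.757 in HS, a difference of -0.63 with an adjusted p of 0.364.

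The signals that drive myofibroblast formation had 11 tested genes, with 2 DEGs in HS against NS, both higher, beside 3.53% of all genes. TGFB3, a TGF-beta ligand, rose by 2.55 (adjusted p = 0.00339, limma) and EDNRA, the endothelin receptor A, by 2.53 (adjusted p = 0.00268). In 5-Fu injection against HS, 4 fell, beside 1.78% of all genes. They were EDNRA (-1.84), TGFB2 (-1.63), TGFB3 (-1.59) and ITGAV (an integrin subunit that takes part in activating TGF-beta, -1.11), with adjusted p from 0.0272 to 0.0424. TGFB3 and EDNRA were thus DEGs in the comparison in which ACTA2 was at -0.18, while the other 9 genes of the list were not.

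Activated fibroblast genes other than FAP had 8 DEGs of 11 tested in HS against NS, all higher, beside 3.53% of all genes. Their median was 2.90 against -0.01 over all genes. The 8 DEGs were COL1A1 (4.34), COL3A1 (3.95), ITGA11 (3.66), TNC (3.39), CDH11 (3.18), POSTN (2.90), LRRC15 (2.28) and LOXL2 (2.21), genes of collagen, matrix and its adhesion, with adjusted p from 0.000748 to 0.0268 in limma. In 5-Fu injection against HS, 5 fell, COL1A1 (-2.69), LRRC15 (-2.19), CDH11 (-2.05), COL3A1 (-1.93) and ITGA11 (-1.89), and 0 rose, beside 1.78% of all genes lower. The injected samples were uneven, with COL1A1 at 1053, 9220 and 1438 FPKM in replicates 1 to 3 and a summed level of the list of 3062, 15215 and 3898. Without 5-Fu injection replicate 2, 8 genes of the list fell against HS, with a median of -2.47 in place of -1.89. The share of all genes called in that refit is not given here, so the count of 8 cannot be set against genes in general. In drug-loaded MNs against HS, 0 genes of any of the 11 lists were DEGs in limma, beside 0.00753% of all genes tested. The activated fibroblast genes had a median of -0.59 there, against -0.02 over all genes, and 0 of the 11 were above 0. Their summed level was 10690 to 16482 FPKM with drug-loaded MNs and 21833 to 30568 in HS.

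**Figure D4:**
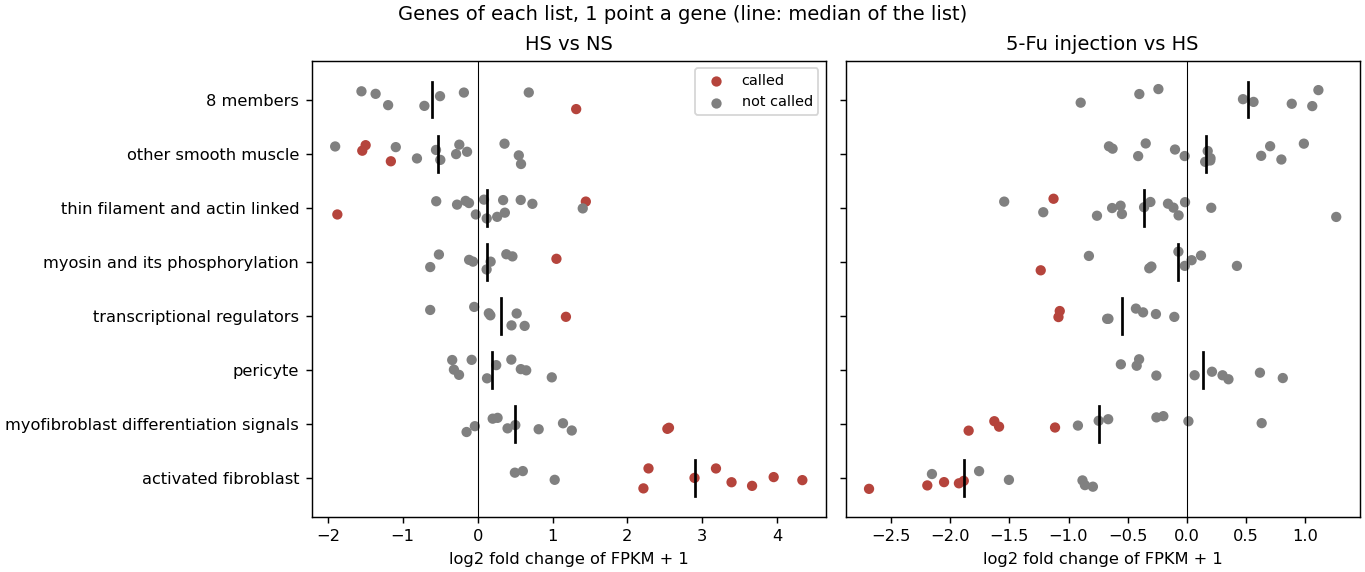
Log2 fold change of FPKM + 1 of each tested gene (1 point a gene, DEGs in red) for the members and 7 lists, in HS against NS and in 5-Fu injection against HS, with a line at the median of each list. Activated fibroblast genes lie to the right of 0 in HS against NS, with a median of 2.90, and to the left in 5-Fu injection against HS, with a median of -1.89, while the members lie on both sides in both comparisons.

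Markers of other cell types were read beside the members. None of 10 pericyte genes was a DEG in HS against NS in limma, beside 5.00% of all genes tested. The nearest was PDGFRB at 0.99 (adjusted p = 0.0133, limma), just under the fold threshold, with RGS5 at 0.65 and ABCC9 at 0.58. Without NS replicate 3, 2 were DEGs, RGS5 and PDGFRB, both higher in HS, with no share over all genes given for that refit. Their summed level was 448 to 894 FPKM in NS and 605 to 767 in HS. Beside the same 5.00% of all genes, none of 6 endothelial genes was a DEG either (KDR 0.64, TEK 0.56, VWF 0.29). Their sums were 283 to 351 in NS, 346 to 396 in HS, 316 to 394 with drug-loaded MNs and 407 to 439 with 5-Fu injection. In 5-Fu injection against HS, 5 of the 6 genes were above 0. Their median there was 0.055, against 0.015 over all genes.

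Of 4 skeletal muscle genes tested, none was a DEG in HS against NS, beside 5.00% of all genes tested (CKM -1.71, ACTA1 -1.61, ACTN2 -0.94, TNNT3 -0.34, adjusted p from 0.133 to 0.673, limma). The sum of the 11 skeletal muscle genes found was 11.8 to 79.4 FPKM in NS and 6.31 to 10.2 in HS. Of 5 epidermal genes 1 fell, KRT5, by 1.34 (adjusted p = 0.0420), beside 1.48% of all genes lower. KRT10 was at -1.08 and DSP at -0.90, and 0 of the 5 were DEGs without NS replicate 3. That library did not stand apart in KRT5, at 606 FPKM between 611 and 533 in the other NS samples, with 207 to 243 in HS. The epidermal sum was 2153 to 3754 FPKM in NS, 1324 to 1902 in HS, 3690 to 8599 with drug-loaded MNs and 2771 to 5385 with 5-Fu injection. All 5 epidermal genes were above 0 in difference from HS in both treated groups. None was a DEG, beside 0.00753% of all genes with drug-loaded MNs and 2.29% with 5-Fu injection. Of 5 cartilage genes none was a DEG in HS against NS, beside the same 5.00% (COL9A1 -1.49, SOX9 -0.92, COL2A1 -0.70), and their sums spread from 385 to 4275 FPKM among the HS samples alone. The part of these other cells in the members' levels was not tested.

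Transgelin could be followed only through 2 rows that carry no symbol but are described as Transgelin, and which are not members. The row on chromosome 1 (99217123 to 99221367) measured 359, 265 and 1414 FPKM in NS and 524, 386 and 361 in HS, and the row on chromosome 15 (46197817 to 46199515) 87.2, 62.6 and 308 in NS and 120, 84.5 and 85.6 in HS. NS replicate 3 was again the highest sample in both. HS against NS was -0.29 and -0.31 (adjusted p = 0.770 and 0.739, limma). Like copies could share reads, so the split between these rows is uncertain.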

How the data were processed

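The 12 bulk RNA-seq samples of rabbit ear were placed in 4 groups of 3 by their labels. Libraries were made from poly-A RNA, and the authors deposited a single table that gives FPKM for 29587 genes by Ensembl identifier, 14494 of them with a symbol. The aligner, counting tool and genome build are not given in the sources used here. The deposited FPKM times gene length were whole multiples of 1 read in 100% of cases (tolerance 0.01), and carried a scaling between samples, so reads could be counted back. Intervals cover the spread between samples.

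Groups were compared with limma 3.58.1 in R 4.3.3, in 1 fit of 4 groups on log2(FPKM + 1) with empirical Bayes and a mean-variance trend, over the 13287 genes whose FPKM averaged 1 or more, with Benjamini-Hochberg adjustment in each of 6 comparisons. The pseudocount understates the change of low genes. The procedure was tested on simulated data. Ratios to ACTA2 used two-sided exact permutation tests. Members and lists were chosen with earlier results of these data known. Named genes were all members, of each list the 3 largest differences in HS against NS and any DEG in HS against NS or in a treatment against HS, and the 5 genes most like ACTA2 and FAP. The skeletal genes too low to be tested and the Transgelin rows fell outside this rule and were chosen after their values were seen. A pair of genes that the rule names is not reported here. Alternatives were a pseudocount of 0.1, no filter, a mean FPKM of at least 5, rescaling to total reads, quantile normalization, limma voom, only the groups compared, the replicate block, adjusted p alone and each sample left out. Leaving out NS replicate 3 with 5-Fu injection replicate 3, the lists without single libraries, and the ratios, were chosen only once values were known.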

Additional observations from a re-analysis of the deposited data

How the results depend on the processing

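Counts of members called kept to within 1.5 times in 92 of 95 recomputed counts. Outside HS against NS the main count was 0, so a count was kept there only by staying at 0. The 92 therefore say little of how firm a call was. The exceptions were HS against NS, where 0 members were called after rescaling to total reads, since FAP fell under the fold threshold, and where leaving out 1 sample gave 0 to 1, the 0 without HS replicate 2 or HS replicate 3. Of 712 recomputed differences, 36 turned sign and 3 lost a call, and none of the turned ones was called. Outside the leaving out of samples, 5 turned: after rescaling, ACTG2 in drug-loaded MNs against HS (0.061), CALD1 in drug-loaded MNs against NS (-0.028) and MYL9 in 5-Fu injection against NS (-0.16), and after quantile normalization, MYL9 in 5-Fu injection against NS (-0.20) and CALD1 in drug-loaded MNs against 5-Fu injection (0.012). The cause was not tested.

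Leaving out NS replicate 3 together with 5-Fu injection replicate 3, chosen after the values had been seen, turned ACTA2 (0.54), MYL9 (0.37) and ACTG2 (0.012) in HS against NS, ACTA2 (0.19), MYL9 (0.20) and SYNPO2 (0.084) in drug-loaded MNs against NS, and MYH11 (0.17), ACTG2 (0.62) and LMOD1 (0.34) in 5-Fu injection against NS. Leaving out 1 sample at a time, the differences that turned ranged in HS against NS from -0.56 to 0.54 for ACTA2, -1.06 to 0.37 for MYL9 and -1.91 to 0.012 for ACTG2. In drug-loaded MNs against NS they ranged from -0.91 to 0.19 for ACTA2, -1.24 to 0.20 for MYL9 and -0.95 to 0.084 for SYNPO2. In 5-Fu injection against NS they ranged from -0.12 to 1.02 for ACTA2, -1.26 to 0.29 for MYH11, -0.50 to 0.94 for MYL9, -0.79 to 1.12 for ACTG2 and -0.91 to 0.60 for LMOD1. In drug-loaded MNs against HS they ranged from -0.25 to 0.23 for ACTG2, -0.016 to 0.21 for LMOD1 and -0.073 to 0.23 for SYNPO2.

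Of 168 recomputed log2 ratios to ACTA2, 7 turned, all when 1 sample was left out. In drug-loaded MNs against HS they ranged from -0.0091 to 0.32 for MYL9, -0.030 to 0.79 for SYNPO2 and -0.35 to 0.39 for FAP, and in 5-Fu injection against HS from -0.15 to 0.78 for MYH11 and -0.37 to 0.38 for MYL9.

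The same replicate number in different groups stood for different rabbits. Samples of the same number deviated together by a mean correlation of -0.19 to 0.12 in the 6 comparisons, so they were not taken as pairs. With the replicate block, 1 member was called in HS against NS and 0 in each other comparison, as without it, while the DEGs among all genes went from 665 to 579 in HS against NS, from 304 to 99 in 5-Fu injection against HS and from 116 to 23 in drug-loaded MNs against NS. With 3 rabbits a group and 1 spread per gene shared by the 4 groups, the intervals of most contractile members hold changes of over 2-fold. NS replicate 3 enters that spread, also in comparisons without NS. ACTG2 had an SE of 0.82 in drug-loaded MNs against HS, as in HS against NS. LMOD1 in 5-Fu injection against HS had an adjusted p of 0.554 (limma) without 5-Fu injection replicate 3. That value was 0.193 with NS replicate 3 left out as well.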
